A study of Arabidopsis thaliana with 4 samples.

Results

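The ethylene receptors and the core proteins that act after them are encoded in Arabidopsis thaliana by the 10 loci examined here, namely the receptor genes ETR1 (AT1G66340), ERS1 (AT2G40940), ETR2 (AT3G23150), ERS2 (AT1G04310) and EIN4 (AT3G04580), the kinase gene CTR1 (AT5G03730), the transducer gene EIN2 (AT5G03280), the transcription factor gene EIN3 (AT3G20770) and the F-box protein genes EBF1 (AT2G25490) and EBF2 (AT5G25350). They were taken by locus code from the deposited tables, where each had 1 of the 27416 gene models. The study sequenced oligo(dT)-selected RNA of whole Col-0 seedlings, either wild type (WT) or mutant for phytochrome B (phyB), a photoreceptor that responds to red light. The phyB allele is not named in the labels. Both genotypes grew on medium with 1% sucrose, which after a cold period of 4 days meant 12 h in white light and then 4 days in red light of 60 μmol per m2 per s, listed as 4.5 days of growth. No ethylene or precursor treatment is listed for either genotype. The labels give 2 samples per genotype but the tables hold 1 read column and 1 RPKM column (reads per kilobase of coding length and per 1e6 reads) for each, so no difference has a replicate check and no test was possible.

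Ethylene signalling runs by release of a brake. Receptors in the endoplasmic reticulum that hold no ethylene keep the Raf-like kinase CTR1 active, and CTR1 phosphorylates EIN2 and so blocks it. When ethylene binds, CTR1 loses activity, a part of EIN2 is cleaved off, and the transcription factor EIN3 and its close relative EIL1 accumulate because the F-box proteins EBF1 and EBF2 no longer send them to the proteasome. Several genes of the pathway are themselves ethylene-induced in Arabidopsis, among them ERS1, ERS2, ETR2 and EBF2, whereas ETR1 and EIN4 are known as weakly responsive. In light-grown seedlings EBF1 and EBF2 are also known to direct the breakdown of the growth regulator PIF3.

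The columns held 33521717 reads in WT and 33201394 in phyB. PHYB itself was at 36.3 RPKM in WT against 14.1 RPKM, lower in the library labelled as the mutant. The 4 green-tissue markers examined were at 2123 RPKM or more in both columns, and the 4 root markers were detected in both, so the label of a whole seedling went with shoot and root transcripts. Of the root markers 3 of 4 were lower in phyB, with log2 ratios of -1.03 for TIP2;3, -0.34 for SCR and -0.25 for COBL9, and the counting interval of COBL9 included 0. EXPA7 stood at 0.30 with an interval from -0.02 to 0.62. The green-tissue markers LHCB2.1, LHCB1.3 and RCA were lower in phyB as well, at -0.33, -0.18 and -0.13, and RBCS1A stood at 0.17. Ratios below 0 occurred in both sets of markers, but only the root marker TIP2;3 was at least 2-fold lower. Whether the phyB column held a smaller share of root transcripts was not tested. The part of these marker differences in the values below was not tested. In whole seedlings fewer cells of a type and less RNA per cell cannot be told apart. The ratio also fell with coding length, its median being 0.39 for genes under 300 nt and -0.21 for those from 2700 nt (log2). The titles of the WT samples alone carry a word for a repeated analysis, so genotype and a difference in handling between the sets of samples cannot be told apart.

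Of the 10 loci, 3 were at least 2-fold higher in phyB (ETR2, EBF2 and ERS1) and 0 were 2-fold lower. All 10 passed the filter of 1 RPKM on the mean of both columns, which left 19295 described genes, and of these 3.2% reached 2-fold in the higher direction and 2.18% in the lower. With the trend on coding length removed, 450 described genes were 2-fold higher and 498 lower, against 617 and 421 as deposited. The loci are long, from 1842 to 3885 nt of coding sequence, and among the 3429 described genes in that range the same shares were 0.758% and 1.31%. The median log2 ratio of the 10 was 0.38, against -0.01 for all described genes and -0.17 for those of similar length. The 95% interval of the ratio, which covers counting error only, lay wholly above 0 for 6 loci and wholly below 0 for 2. Over all described genes these shares were 29.8% and 32%, and in the same length range 13.4% and 53.4%.

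**Figure D1:**
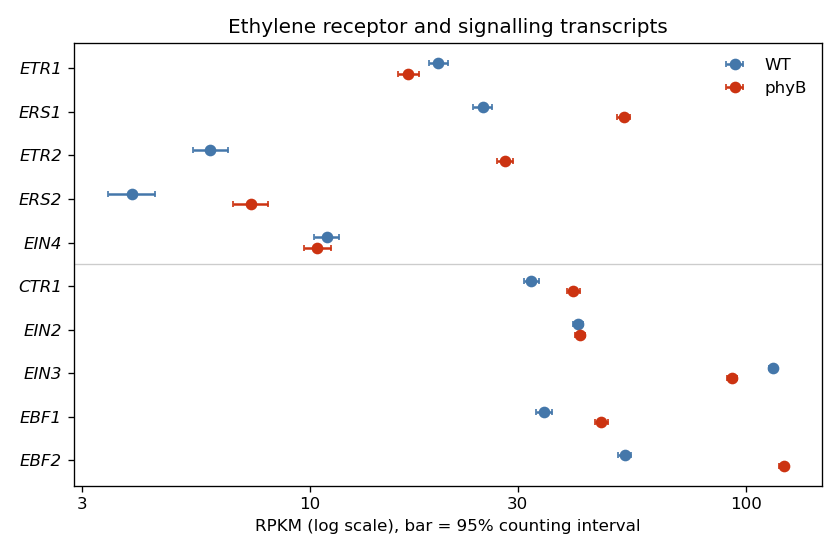
Transcript level of each of the 10 loci in RPKM (log axis) in WT and phyB, 1 deposited column per genotype, with 95% counting intervals as bars. ETR2, ERS1, ERS2 and EBF2 show the widest gaps, while EIN2 stands at 41.2 and 41.7 RPKM and EIN4 at 10.9 and 10.4 RPKM.

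The receptors fall into 2 subfamilies. ETR1 and ERS1 form the subfamily with a complete histidine kinase domain, and ETR2, ERS2 and EIN4 the subfamily in which that domain is degenerate. ERS1 and ERS2 lack the receiver domain that the other three carry. ETR2 differed most between genotypes, with 461 reads (5.92 RPKM) in WT and 2166 reads (28.1 RPKM) in phyB. This was 4.74-fold higher in phyB, with a counting interval from 4.29 to 5.26, or a log2 ratio of 2.25. Only 58 described genes had a higher ratio. ERS2, the receptor gene with the lowest level in both columns, had 254 reads (3.91 RPKM) in WT and 472 reads (7.34 RPKM) in phyB. Its log2 ratio of 0.91 lay just below the 2-fold line, with an interval from 0.68 to 1.13 that spans that line. EIN4, the remaining member of this subfamily, had 844 reads (10.9 RPKM) in WT and 796 reads (10.4 RPKM) in phyB, and the interval of its log2 ratio, from -0.21 to 0.07, includes 0.

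Within the other subfamily the members had ratios on opposite sides of 0. ERS1 had 1540 reads (24.9 RPKM) in WT and 3213 reads (52.5 RPKM) in phyB, which was 2.11-fold higher with an interval from 1.98 to 2.24. ETR1, the founding receptor gene, had 1467 reads (19.7 RPKM) in WT and 1240 reads (16.8 RPKM) in phyB. Its log2 ratio was -0.23, with an interval from -0.34 to -0.12. With the trend on coding length removed, ETR1 stood at -0.08 and its interval, from -0.19 to 0.03, included 0, while ERS1 stood at 1.19. ETR2, ERS1 and ERS2, the receptor genes known as ethylene-induced, had log2 ratios of 2.25, 1.07 and 0.91. ETR1 and EIN4 were the 2 of 5 with ratios below 0, and EIN4 turned to 0.09 with the length trend removed. Whether ethylene had a part in these values was not tested.

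A ratio between genes of the same column does not depend on how the columns are scaled. Of 10 such pairs, chosen with the values known, ETR2 against ETR1 differed most. ETR1 was 3.33 times the level of ETR2 in WT, per coding length, whereas in phyB ETR2 was 1.67 times the level of ETR1. The relative level of ETR2 to ETR1 was therefore 5.56-fold higher in phyB, with a 95% counting interval from 4.90 to 6.30. The same quantity was 2.47-fold for ERS1 against ETR1 (2.24 to 2.72) and 2.20-fold for ERS2 against ETR1 (1.85 to 2.61). For EIN4 against ETR1 it was 1.12-fold, with an interval from 0.987 to 1.26 that includes equality.

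**Figure D2:**
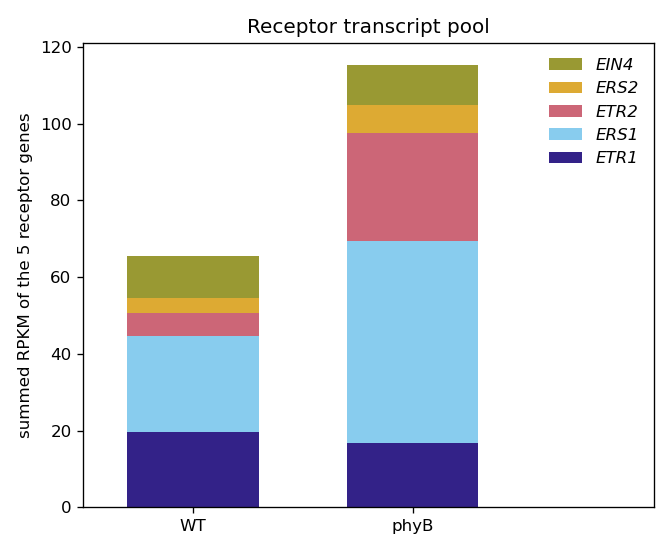
RPKM of the 5 receptor genes stacked into a sum for WT and phyB, 1 deposited column per genotype and without error bars. The sum is 65.5 RPKM in WT and 115 RPKM in phyB, and the ERS1 and ETR2 segments account for the difference.

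Summed over the 5 receptor genes, transcripts came to 65.5 RPKM in WT and 115 RPKM in phyB. The ratio of these sums was 1.76. ERS1 gave 55.4% of this difference and ETR2 44.5%, while the gain of ERS2 was offset by the lower values of ETR1 and EIN4. The makeup of the sum differed as well, as the plot of the receptor transcript pool shows. ETR1 made up 30.2% of it in WT and 14.6% in phyB. ETR2 made up 9.05% and 24.4%, and ERS1, the largest part in both columns, 38.1% and 45.6%. The subfamily of ETR2, ERS2 and EIN4 held 31.7% of the sum in WT and 39.8% in phyB. These are shares of transcripts per coding length and do not give amounts of receptor protein.

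The 4 promoter stretches that follow show the letters before ERS1 and ETR1, which had ratios on opposite sides of 0, and before ETR2 and EDF3, 2 genes at least 2-fold higher that were picked because they hold matches. EBF2 and ARL, which were 2-fold higher too, held no EIN3 word within 1000 bases of the start, and ARGOS held 1 at 290 bases. EDF3 encodes an AP2/B3 transcription factor of the ethylene response and is described with the other pathway genes. All are RefSeq sequences of the TAIR10.1 build, read 5′ to 3′ on the strand of the gene, and capitals mark matches to the motifs searched. ERS1 (chr2:17087327-17087576, minus strand), ETR1 (chr1:24733912-24734161, plus strand) and EDF3 (chr3:9396022-9396271, plus strand) are shown for the 250 bases before the annotated gene start, and ETR2 (chr3:8254059-8254308, plus strand) for the bases from 500 to 251 before it, since its nearest 250 bases held no EIN3 word.
ERS1: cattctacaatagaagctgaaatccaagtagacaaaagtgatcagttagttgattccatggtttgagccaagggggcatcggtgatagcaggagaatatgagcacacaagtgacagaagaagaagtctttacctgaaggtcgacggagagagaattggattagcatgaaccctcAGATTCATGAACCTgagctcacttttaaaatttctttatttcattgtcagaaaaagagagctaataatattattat
ETR1: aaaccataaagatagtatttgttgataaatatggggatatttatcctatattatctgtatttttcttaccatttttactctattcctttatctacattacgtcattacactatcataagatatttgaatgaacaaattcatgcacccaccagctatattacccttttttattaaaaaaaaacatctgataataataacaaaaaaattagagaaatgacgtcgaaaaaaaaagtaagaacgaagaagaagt
ETR2: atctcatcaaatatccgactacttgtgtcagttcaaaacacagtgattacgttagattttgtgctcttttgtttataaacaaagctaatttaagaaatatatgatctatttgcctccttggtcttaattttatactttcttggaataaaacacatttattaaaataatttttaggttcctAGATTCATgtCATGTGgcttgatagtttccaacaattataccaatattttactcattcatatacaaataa
EDF3: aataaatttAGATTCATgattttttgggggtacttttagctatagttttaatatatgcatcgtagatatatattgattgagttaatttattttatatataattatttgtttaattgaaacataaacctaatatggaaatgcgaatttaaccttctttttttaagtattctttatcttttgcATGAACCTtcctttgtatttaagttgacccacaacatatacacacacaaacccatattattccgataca

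The search covered both strands for 8 words of the binding sequence known for EIN3 (ACGAACCT, ACGAATCT, ACGTACCT, ACGTATCT, ATGAACCT, ATGAATCT, ATGTACCT and ATGTATCT), the G-box CACGTG and the PBE-box CACATG, the last pair being motifs bound by PIF proteins. ERS1 held ATGAATCT on the opposite strand and ATGAACCT on its own strand, beginning 76 and 70 bases before the start. These matches overlap and read together as AGATTCATGAACCT. ETR2 held ATGAATCT on the opposite strand at 320 and 651 bases before the start, with a PBE-box at 310. EBF1 held an EIN3 word at 971 bases. Within 250 bases 1 of the 10 loci had an EIN3 word, against 5.93% of 27443 protein-coding promoters, and within 1000 bases 3 of 10 had one against 24.5%. Of the 29 other pathway genes 3 had an EIN3 word within 250 bases and 5 within 1000. A PBE-box was found within 1000 bases of 7 loci and of 15 of the 29 other pathway genes, against 37.7% of promoters. Within 250 bases it was found at 1 locus, against 11.1%. A G-box was found within 1000 bases of 0 loci and of 5 of the 29, against 14.8%. Whether the share with a PBE-box differs from that of promoters was not tested. The EIN3 words were thus about as frequent before the 10 loci as before other genes, and a match of letters does not show that a factor binds there.

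The steps between receptors and nucleus differed little. CTR1, the kinase that holds the pathway off, had 2664 reads (32.2 RPKM) in WT and 3289 reads (40.2 RPKM) in phyB. Its log2 ratio was 0.32, with an interval from 0.24 to 0.39. EIN2, the membrane protein that carries the signal onward, had 5366 reads (41.2 RPKM) in WT and 5378 reads (41.7 RPKM) in phyB. Its log2 ratio of 0.02 had an interval from -0.04 to 0.07, and with EIN4 it was 1 of the 2 loci whose interval included 0. EIN2 is also the longest locus, and with the length trend removed it stood at 0.23. CTR1 stood at 0.49 on that scale.

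EIN3, the transcription factor of the pathway, was the most abundant of the 10 in WT. It had 7302 reads (115 RPKM) in WT and 5830 reads (93.1 RPKM) in phyB. Its log2 ratio was -0.31, with an interval from -0.36 to -0.26. This was the lowest ratio of the 10, and it stayed below 0, at -0.20, with the length trend removed. EIN3 is known to be controlled mainly through the stability of its protein, which these data do not measure.

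Both F-box genes, whose products mark EIN3 for breakdown, were higher in phyB, EBF2 by more. EBF2 had 3314 reads (52.8 RPKM) in WT and 7592 reads (122 RPKM) in phyB, 2.31-fold higher with an interval from 2.22 to 2.41. EBF1 had 2180 reads (34.5 RPKM) in WT and 2924 reads (46.7 RPKM) in phyB, 1.35-fold higher with an interval from 1.28 to 1.43. The level of EBF2 relative to EBF1 was 1.53 in WT and 2.62 in phyB, a 1.71-fold difference with an interval from 1.59 to 1.83. EIN3 was 2.19 times the level of EBF2 in WT, while in phyB EBF2 was 1.31 times the level of EIN3. Of 2 genes annotated on the opposite strand that overlap EBF2, 1 overlaps its coding part. Without strand information, reads of that gene cannot be told apart from those of EBF2.

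**Figure D3:**
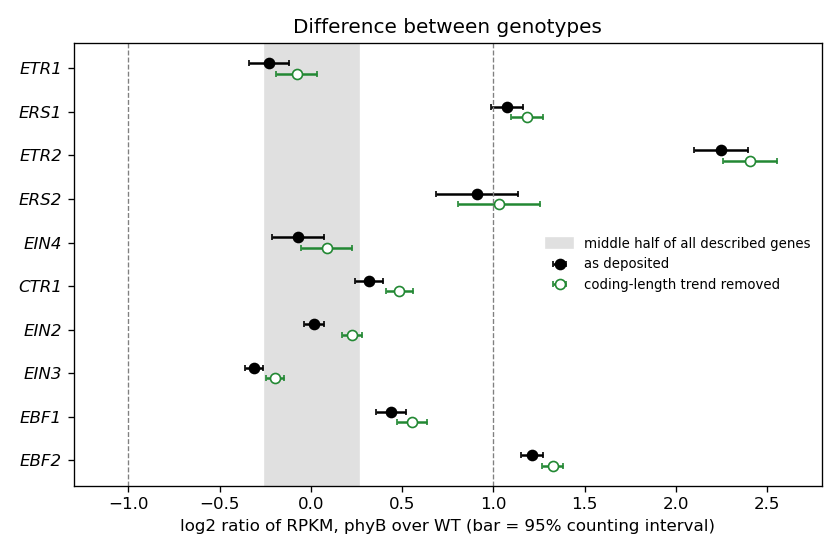
Log2 ratio of RPKM, phyB over WT, for each of the 10 loci as deposited (filled) and with the trend on coding length removed (open), with 95% counting intervals. Dashed lines mark 2-fold and the grey band holds the middle part of all described genes between their quartiles, -0.25 and 0.26; ETR2 lies at 2.25, EBF2 at 1.21 and ERS1 at 1.07, and ERS2 crosses the 2-fold line from 0.91 to 1.03.

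The order of the 10 levels differed between columns. In WT it ran EIN3, EBF2, EIN2, EBF1, CTR1, ERS1, ETR1, EIN4, ETR2 and ERS2, and in phyB EBF2, EIN3, ERS1, EBF1, EIN2, CTR1, ETR2, ETR1, EIN4 and ERS2. Neighbours in these orders had separate 95% counting intervals, apart from EBF1 and CTR1 in WT and EIN2 and CTR1 in phyB. ETR2 thus moved from below EIN4 to above ETR1, and ERS1 from below CTR1 to above EBF1.

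**Figure D4:**
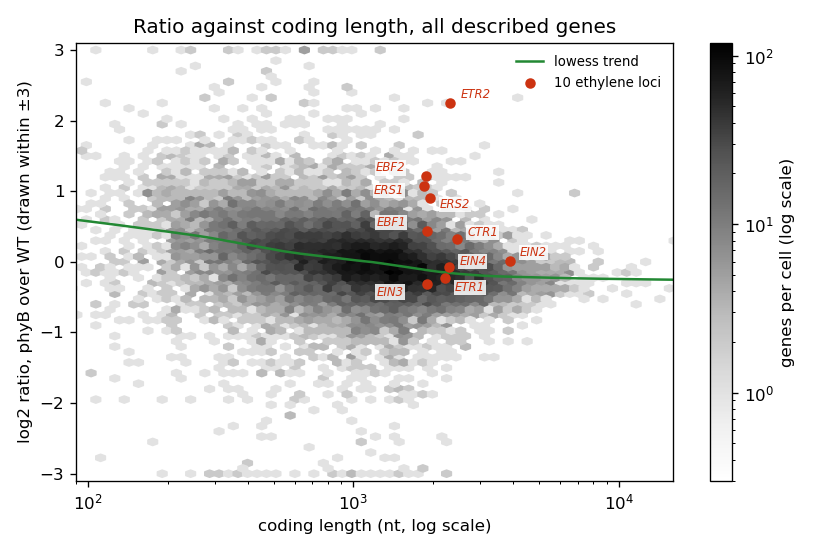
Log2 ratio of RPKM, phyB over WT, against coding length (log axis) for the 19295 described genes, shaded by the number of genes per cell, with the lowess trend as a line and the 10 loci as points. The trend at the lengths of the 10 loci lies between -0.21 and -0.11, and ETR2, EBF2, ERS1, ERS2, EBF1, CTR1, EIN2 and EIN4 lie above it.

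At the lengths of these loci the trend stood between -0.21 and -0.11, so its removal raised every one of the 10 ratios, by 0.14 on average. On that scale ETR2 stood at 2.40, EBF2 at 1.32, ERS1 at 1.19 and ERS2 at 1.03, which made 4 loci at 2-fold or more, and the median of the 10 was 0.52.

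**Figure D5:**
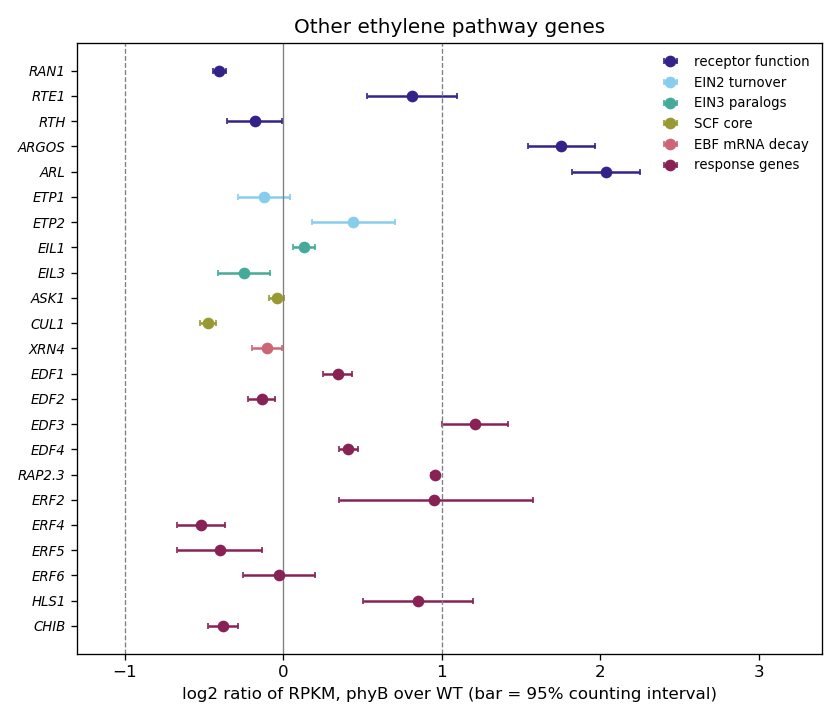
Log2 ratio of RPKM, phyB over WT, with 95% counting intervals for the 23 other pathway genes that passed the filter of 1 RPKM, coloured by role. ARL, ARGOS and EDF3 lie at 2-fold or more (dashed lines), and 0 genes lie at 2-fold lower.

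Of 29 other genes of the pathway, listed by their known role, 23 passed the filter of 1 RPKM. Among them 3 were at least 2-fold higher in phyB (ARL, ARGOS and EDF3) and 0 were 2-fold lower, against 3.2% and 2.18% of all described genes. The ratios were above 0 for 11 and below 0 for 12, with a median of -0.03 against -0.01 over all described genes. With the length trend removed these medians were 0.08 and -0.004. ARGOS and ARL encode small membrane proteins known to lower the sensitivity to ethylene through the receptors. RefSeq annotates ARGOS as an auxin-regulated gene involved in organ size, and ARL as an ARGOS-like protein. ARL had 225 reads (16.5 RPKM) in WT and 913 reads (67.4 RPKM) in phyB, 4.10-fold higher with an interval from 3.54 to 4.76. ARGOS had 240 reads (18.2 RPKM) in WT and 801 reads (61.4 RPKM) in phyB, 3.37-fold higher with an interval from 2.91 to 3.91. Both genes are short, and with the length trend removed their log2 ratios were 1.80 and 1.51. RTE1, which promotes ETR1 function, was at 6.50 and 11.4 RPKM with a log2 ratio of 0.81, and its homolog RTH at -0.18. RAN1, which supplies copper for ethylene binding, was at 112 and 84.8 RPKM with a log2 ratio of -0.40. With the length trend removed RTE1, RTH and RAN1 stood at 0.73, -0.28 and -0.21. Genes tied to receptor function therefore differed in both directions, with only ARL and ARGOS at 2-fold or more.

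Among the other listed genes further along the pathway, the regulators of turnover differed less than 2-fold. ETP1 and ETP2, F-box proteins that target EIN2, stood at log2 ratios of -0.12 and 0.44. EIL1, the EIN3 relative with an overlapping role, was at 55.6 and 60.8 RPKM with a log2 ratio of 0.13, against -0.31 for EIN3. CUL1 and ASK1, subunits of the ligase that EBF1 and EBF2 join, stood at -0.47 and -0.04. XRN4, an exoribonuclease known to lower EBF1 and EBF2 transcripts, stood at -0.10. With the length trend removed its sign turned, to 0.08. PIF3, a light-dependent target of EBF1 and EBF2, was at 17.4 and 24.6 RPKM with a log2 ratio of 0.50.

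The response genes also went both ways. EDF3 had 267 reads (7.95 RPKM) in WT and 611 reads (18.4 RPKM) in phyB, 2.31-fold higher with an interval from 2.00 to 2.68. Its relatives EDF1, EDF2 and EDF4 stood at log2 ratios of 0.34, -0.14 and 0.41. RAP2.3, a group VII ethylene response factor gene, was at 655 and 1271 RPKM with a log2 ratio of 0.96. HLS1, which is needed for the apical hook, had 110 reads (2.71 RPKM) in WT and 196 reads (4.87 RPKM) in phyB, 1.80-fold higher with an interval from 1.42 to 2.29. ERF1, a direct EIN3 target, was near the limit of detection with 6 and 23 reads and did not pass the filter of 1 RPKM. Its ratio was above 0, with an interval from 1.53-fold to 11.6-fold that covers counting error only and hardly gives a size. ERF2 was at 36 and 69 reads, 1.94-fold higher with an interval from 1.28 to 2.98. ERF6 stood at a log2 ratio of -0.03, ERF4 and ERF5 at -0.52 and -0.40, and the basic chitinase gene CHIB, a classical ethylene marker, at -0.38. A gene annotated on the opposite strand overlaps the coding part of CHIB, so its reads cannot be told apart from those of CHIB without strand information. PDF1.2, a defence gene that needs ethylene and jasmonate, had 1 read in WT and 0 in phyB.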

How the data were processed

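Messenger RNA of whole seedlings was purified with oligo(dT) beads per the labels' protocols. Samples were grouped by the labelled genotype. The deposited read columns were handled as estimated counts, since the authors wrote 0.5 for gene models without reads (4164 entries in WT and 4100 in phyB, set to 0 here). The authors deposited RPKM values that equal the reads per coding length and per total of the column, with implied lengths whole within 0.001 nt. Per the submitters' processing notes the genome build was TAIR10. Which aligner and counter were used, with or without strand, and whether the 2 samples were pooled, is not stated in the labels or headers.

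Ratios are the log2 of RPKM in phyB divided by RPKM in WT, without a pseudocount. Where 1 column had 0 reads, a floor of 3 reads stood in its place, and genes with at most 3 reads in both columns have no ratio. Described genes have a mean of at least 1 RPKM. Intervals for ratios are exact conditional 95% intervals from both read counts (Clopper-Pearson), those for levels exact Poisson intervals, and those between pairs of genes Woolf intervals on the log odds ratio. PCR copies are not independent molecules, so all cover counting error only. The design foresaw no test for 1 column per genotype. Ratios were regressed on the logarithm of coding length by lowess (span 0.3, statsmodels 0.14.6) to give the length trend, and TMM and RLE factors came from edgeR 4.0.16. The ratio and trend steps were checked on simulated counts with known answers.

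RefSeq TAIR10.1 supplied positions and names. Of the 26719 nuclear models found there 96.8% had an annotated coding length equal to the implied one, as had all 10 loci. In a BLAST 2.17.0 search of the genome, 0 of the 10 coding sequences matched another place at 90% identity or more over 50 nt, and the closest long match was EIN3 with EIL1 (78.9% over 1561 nt). ETR1 overlaps a gene on the same strand, ERS1 1 and EBF2 2 genes on the opposite strand, within the coding part in EBF2 alone.

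The members, gene lists and pairs were chosen with earlier results of these data known. Named were all 10 loci, other pathway genes at 2-fold or more, EIL1, ERF1 and HLS1, PHYB and PIF3. The further pathway genes and the markers were named after their values were seen. No genes of like pattern are named, since 2 columns define no pattern.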

Additional observations from a re-analysis of the deposited data

How the results depend on the processing

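Under TMM and RLE factors, quantile normalization, log2(RPKM + 1), no filter, a filter of 5 RPKM and totals without organelle genes, the 10 loci gave 3 at least 2-fold higher and 0 lower. Removal of the coding-length trend gave 4 higher, with ERS2 added, and a counting interval wholly beyond 2-fold gave 2, without ERS1. Removing the trend moved 9 of the 10 ratios out of their counting intervals and turned the sign of EIN4. ETR2 ranged from 2.07 on the log2(RPKM + 1) scale to 2.40, EBF2 from 1.16 to 1.32, ERS1 from 1.05 to 1.19, ERS2 from 0.76 to 1.03 and EIN3 from -0.40 to -0.20. Against 617 higher and 421 lower described genes, the counts were 374 and 247 for log2(RPKM + 1), 1277 and 860 when unfiltered, 321 and 197 for the filter of 5 RPKM and 244 and 195 with the interval beyond 2-fold, as each criterion widens or narrows the set by construction. Without the trend the split turned to 450 higher and 498 lower. The other pathway genes gave 3 higher under all settings but 2, with 4 (ERF1 added) for no filter and 2 (without EDF3) for the interval. No paired analysis was possible because the tables hold 1 column per genotype, and so neither DESeq2 nor a fit without 1 replicate was run. Among the 10 loci ERS2 had the fewest reads, 254 and 472, and the widest counting interval.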
